A study of Mus musculus with 20 samples.

Results

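Mouse hepatoma cells that had lived for 20 passages in hexavalent chromium, Cr(VI), and then for 5 passages free of it were compared with cells of the same passage 25 that had never been exposed. The comparison held 4 of the 20 RNA-seq libraries of the series, 2 from recovered cells and 2 from control cells, and each recovered library was matched to the control library with the same replicate number. All 4 libraries came from Hepa-1, a mouse liver tumour line, kept in medium with 5% serum, passaged every 3 days and given the solvent DMSO for 8 hours before harvest. The Cr(VI) concentration is 0.5 mM as labelled, although the title of the series calls the exposure low. Further libraries were used for comparison only. At passage 25 these were recovered and control cells given benzo[a]pyrene (B[a]P, 5 mM as labelled) for 8 hours and cells that stayed in Cr(VI) through all 25 passages and received DMSO, with 2 libraries a group, and from passage 20 the Cr(VI)-grown and control cells under DMSO, again 2 each. Everything rests on a single cell line, and the labels do not say whether duplicates were separate cultures, so each p-value here covers only the spread among these libraries, which may be technical.

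Chromate enters cells through sulfate transporters and is reduced inside to trivalent chromium, which binds DNA and gives crosslinks and breaks. The damage response runs largely through the transcription factor p53, whose targets stop the cell cycle or start repair. Of the other stress programmes of liver cells, 2 are described at most length here. Their gene lists were chosen with earlier results of these data known. When cells lack amino acids or fold proteins poorly, kinases slow translation and let the factor ATF4 be made, which switches on genes for amino acid supply and redox balance. When membranes hold little cholesterol, the factor SREBP2 is released from the endoplasmic reticulum and switches on nearly every enzyme of cholesterol synthesis.

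Total counts were 27076914 and 30457749 in the recovered libraries and 34290046 and 21795837 in the control libraries of replicates 1 and 2. The replicate sets of passage 25 stood far apart from each other. Within recovered cells 50.8% of genes were more than 2-fold apart between replicates, and within control cells 43.7%. The 100 most counted genes took 31.5% and 29.6% of the counts in recovered and control libraries of replicate 2, against 20.6% and 19.8% in those of replicate 1. The replicate 2 minus replicate 1 differences of recovered and control cells correlated with r = 0.88 across genes, which are not independent replicates. Levels are therefore given for each library, and differences within replicate numbers. Alb was at 1528 and 4502 CPM (counts scaled to library size with TMM factors) in recovered cells and 2330 and 4818 CPM in control cells, and Afp was at 134 and 300 CPM against 177 and 258 CPM. Of 12 markers of hepatocytes and hepatoma 8 were tested, and Hnf4a, Apoa1 and Apob were among those that did not pass the count filter, Hnf4a with 3 and 0 counts in recovered cells and 3 and 0 counts in control cells. Of markers of other liver cells, C1qa, C1qb and Marco of macrophages and Lum and Thy1 of fibroblasts had 0 counts in all 12 libraries of passage 25. Macrophage markers summed to 66.8 and 105 CPM in recovered cells and 79.8 and 94.9 CPM in control cells, and endothelial markers to 13.6 and 24.7 CPM against 12.6 and 19.6 CPM. The 7 tested markers of stellate cells and fibroblasts summed to 1390 and 1373 CPM in recovered cells and 891 and 1193 CPM in control cells. Of the 7, 5 were higher and 2 lower in both pairs (median log2 difference 0.42), beside 25.4% and 27.7% of all genes. At an unadjusted edgeR p under 0.05, 0 were higher and 1 was lower. The 6 tested markers of cholangiocytes summed to 666 and 1549 CPM in recovered cells and 568 and 1267 CPM in control cells. The part of these markers in the results was not tested. In bulk RNA, fewer cells that express a gene and less of its RNA per cell cannot be told apart.

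No gene passed an adjusted p of 0.05 between recovered and control cells. edgeR's quasi-likelihood test with the replicate number as a block called 0 of 13692 genes (0%), and without the block it called 0 as well. At an unadjusted p under 0.05 there were 520 genes (3.8%), 285 higher (2.08%) and 235 lower (1.72%) in recovered cells, and without the block 44 genes (0.321%). Where no gene differs, this threshold passes a fraction of 0.05 of genes on average, and both shares lie below it. The number of genes at this threshold is therefore no sign of a difference. DESeq2 with the same block called 9 genes, which are described further on. The count of 0 in edgeR became 5 when recovered replicate 2 was left out. What follows describes genes by how they stood in the libraries, and none of them is a call of edgeR. The 2 pairs differed unlike each other. In replicate 1, 6.04% of genes were over 2-fold apart between recovered and control cells, in replicate 2 it was 4.61%, and across genes the differences of both pairs correlated with r = 0.12.

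Genes of cholesterol synthesis were lower in recovered cells. All 23 genes of the list were tested, 0 passed, 14 were lower and 0 higher at an unadjusted p under 0.05, and 19 were lower in both pairs, against 27.7% of all genes. The median log2 difference was -0.86, beside -0.01 over all genes tested. The median was -1.51 in replicate 1 and -0.32 in replicate 2. In replicate 1, 19 members were lower by 2-fold or more, beside 2.73% of all genes, and in replicate 2 there were 2, beside 2.4%, so that the difference was much larger in replicate 1. Recovered and control libraries did not overlap for 8 of the 23, all with recovered cells below, against 4.34% of all genes. Without the block 0 members reached the unadjusted threshold, and without recovered replicate 1 or without control replicate 1 the 14 became 3 each. The list also differed between replicate sets, with a median of 0.98 in recovered cells and -0.57 in control cells for replicate 2 minus replicate 1. The part of this library difference in the result was not tested.

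Hmgcs1, which makes the HMG-CoA that the pathway starts from, had the lowest p of all genes. It lies on chromosome 13 from 119690351 to 119708260 (GRCm38.p6, Entrez ID 208715). Its promoter is shown because it holds, in capitals, a match to the core of the sterol regulatory element that SREBP proteins bind, 137 bases before the annotated start. The sequence is the 250 bases before the start, 5′ to 3′, from RefSeq on GRCm38.p6.
Hmgcs1 chr13:119690101-119690350 (plus strand): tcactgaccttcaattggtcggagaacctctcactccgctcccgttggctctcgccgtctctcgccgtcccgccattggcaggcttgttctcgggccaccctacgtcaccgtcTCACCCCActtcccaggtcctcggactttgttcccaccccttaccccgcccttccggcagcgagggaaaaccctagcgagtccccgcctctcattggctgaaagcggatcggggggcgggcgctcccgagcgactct
The letters searched were TCACNCCA on both strands in windows of 250 bases before to 50 after a start. They occurred in 3 of the 16 sterol genes that have a promoter in the table (Hmgcs1, Msmo1 and Srebf2) and in 4.97% of all 27025 genes with a promoter. A match describes letters in a window and not a site in use.

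Hmgcs1 stood at 41.4 and 10.4 CPM in recovered cells and at 191 and 23.2 CPM in control cells. Both recovered libraries were below the control library of their own replicate, although recovered replicate 1 lay above control replicate 2. The log2 difference was -1.69 ± 0.32 (SE, edgeR adjusted p = 1, DESeq2 adjusted p = 0.0131), with -2.20 and -1.15 in the 2 pairs. Idi1, the isomerase that readies the isoprene unit, stood at 23.3 and 5.59 CPM in recovered cells and at 163 and 11.8 CPM in control cells. It was lower in both pairs by log2 -2.80 and -1.07, with a fitted difference of -1.99 ± 0.43 (edgeR adjusted p = 1, DESeq2 adjusted p = 0.0282). These 2 were the only members lower by 2-fold or more in both pairs, and over all genes 0.241% were.

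Sqle, which adds oxygen to squalene, had 84.7 and 98.4 CPM in recovered cells and 277 and 123.9 CPM in control cells (log2 -0.94 ± 0.33). Among the enzymes that turn lanosterol into cholesterol, Cyp51 had 22.2 and 29.9 CPM in recovered cells against 102 and 39.7 CPM in control cells (log2 -1.23 ± 0.40). The groups did not overlap for either gene. Msmo1 had 43.9 and 33.2 CPM in recovered cells and 122.97 and 47.9 CPM in control cells (log2 -1.01 ± 0.24), and Nsdhl had 15.3 and 33.5 CPM against 63.6 and 39.5 CPM (log2 -1.11 ± 0.43). Both stood without overlap between groups, and in each the replicate 1 control library was the highest of the 4.

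Insig1, which holds SREBP in the endoplasmic reticulum and is itself an SREBP2 target, had 17.3 and 8.61 CPM in recovered cells against 78.7 and 11.1 CPM in control cells (log2 -1.26 ± 0.37). Srebf2, which encodes SREBP2, had 71.8 and 233 CPM in recovered cells and 156 and 292 CPM in control cells (log2 -0.67 ± 0.30). Each was lower in both pairs, but the groups overlapped across the replicate sets. Of the 4 genes not lower in both pairs, 1 was higher in both. Fdps, Mvk and Ebp were lower in replicate 1 only, and in replicate 2 their log2 differences were 0.03, 0.09 and 0.26.

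**Figure D1:**
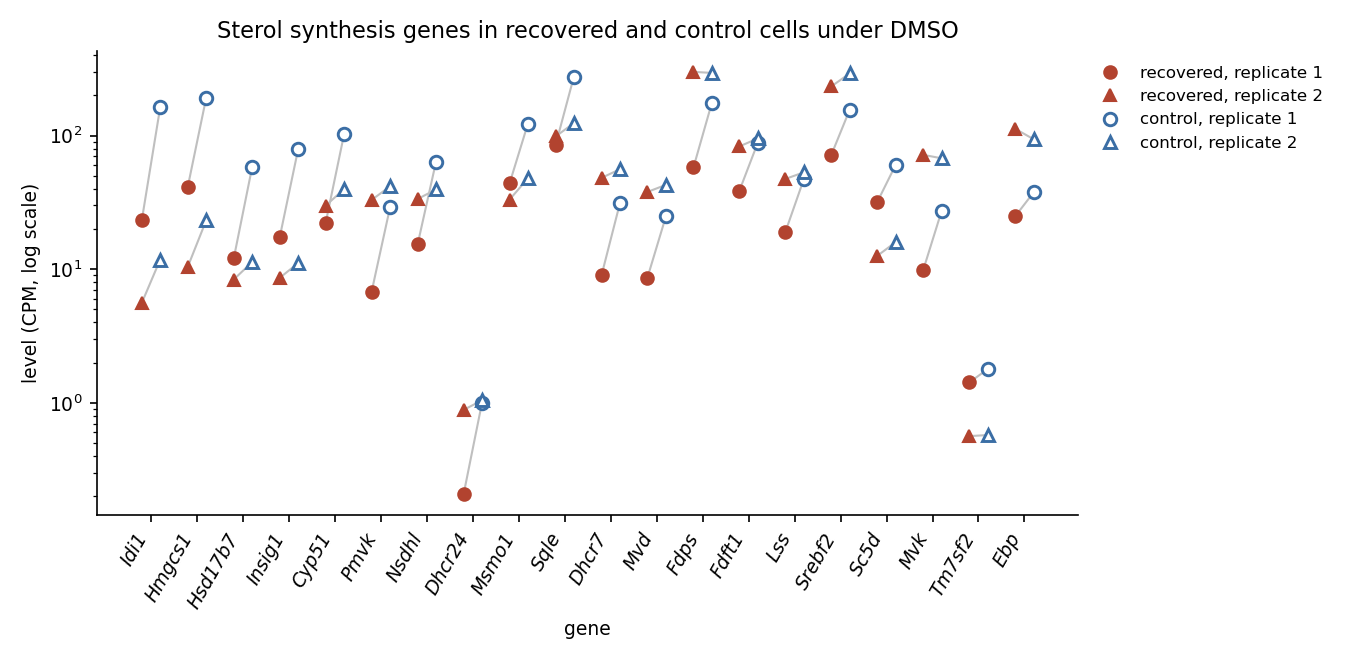
Levels of 20 sterol synthesis genes in CPM on a log axis, 1 point per library, with recovered cells filled and left of control cells, circles for replicate 1, triangles for replicate 2 and grey lines joining the libraries of equal replicate number. Hmgcs1 sits at 41.4 and 10.4 CPM in recovered cells and 191 and 23.2 CPM in control cells, and lines in replicate 1 are steeper than in replicate 2.

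Fatty acid synthesis, which SREBP1 drives, was lower by less, and the gap to the sterol list lay mostly in replicate 1. Of 15 genes tested 0 passed, 4 were lower and 0 higher at an unadjusted p under 0.05, and 10 were lower in both pairs (median -0.35, with -0.48 in replicate 1 and -0.26 in replicate 2). Of all genes 1.72% were lower at that threshold and 27.7% were lower in both pairs. The 4 were the desaturases Scd1 and Scd2, the elongase Elovl6 and Acaca, the carboxylase that makes malonyl-CoA. Scd1 had 123.01 and 109 CPM in recovered cells and 231 and 141 CPM in control cells, without overlap (log2 -0.63 ± 0.23). Fasn, the fatty acid synthase itself, had 304 and 885 CPM in recovered cells and 517 and 925 CPM in control cells (log2 -0.39 ± 0.31). Its difference was smaller than the gap between replicate sets, as were those of Hmgcs1 and Idi1.

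Genes of the ATF4 response were higher in recovered cells, and nearly all of that difference lay in replicate 1. All 19 genes of the list were tested, 0 passed, 10 were higher and 0 lower at an unadjusted p under 0.05, and 12 were higher in both pairs, against 25.4% of all genes. The median log2 difference was 0.87, with 1.33 in replicate 1 and 0.10 in replicate 2. Recovered libraries lay above both control libraries for 7 of the 19, against 4.89% of all genes. In replicate 1, 15 of the 19 were higher by 2-fold or more, beside 3.31% of all genes, and in replicate 2 none was, beside 2.21%. Without recovered replicate 1 the 10 became 0, without control replicate 1 they became 1, and without the block 2. The list also differed between replicate sets, with a median of -1.46 in recovered cells and 0.64 in control cells for replicate 2 minus replicate 1, and the part of this in the result was not tested.

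Chac1, which degrades glutathione and is among the most responsive ATF4 targets, lies on chromosome 2 from 119351242 to 119354326 (Entrez ID 69065). Asns, which makes asparagine and is a textbook ATF4 target, lies on chromosome 6 from 7675165 to 7693209 (Entrez ID 27053). Their promoters are shown, as above, because each holds in capitals the core of the CEBP-ATF response element, through which ATF4 acts with CEBP partners. It begins 193 bases before the start in Chac1, where it reads on the other strand, and 23 bases before it in Asns.
Chac1 chr2:119350992-119351241 (plus strand): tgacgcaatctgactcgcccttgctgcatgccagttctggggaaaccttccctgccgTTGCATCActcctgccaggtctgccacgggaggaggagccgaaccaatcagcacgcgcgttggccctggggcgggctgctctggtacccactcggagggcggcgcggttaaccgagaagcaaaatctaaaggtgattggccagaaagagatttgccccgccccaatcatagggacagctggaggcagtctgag
Asns chr6:7693210-7693459 (minus strand): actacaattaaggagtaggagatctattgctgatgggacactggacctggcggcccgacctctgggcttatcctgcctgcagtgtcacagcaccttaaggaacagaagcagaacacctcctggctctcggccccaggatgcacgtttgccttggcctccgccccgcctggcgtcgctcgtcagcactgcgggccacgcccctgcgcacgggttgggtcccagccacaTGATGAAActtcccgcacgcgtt
The letters TGATGNAA occurred on either strand in 5 of 17 ATF4 genes with a promoter in the table (Asns, Chac1, Slc7a11, Trib3 and Vldlr) and in 4.51% of all genes with one. Slc7a11, which holds the same letters, was at 251 and 773 CPM in recovered cells and 258 and 641 CPM in control cells (log2 0.14 ± 0.29), so that Chac1 and Slc7a11, both with the match, stood at the 2 ends of the list.

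Chac1 had 33.7 and 6.64 CPM in recovered cells and 2.79 and 4.69 CPM in control cells. Both recovered libraries were above both control libraries, with log2 differences of 3.57 and 0.49 in the 2 pairs (fitted 2.41 ± 0.61, edgeR adjusted p = 1, DESeq2 adjusted p = 0.0404). Trib3, a pseudokinase that feeds back on ATF4, had 202 and 73.5 CPM in recovered cells and 25.4 and 63.0 CPM in control cells (log2 2.03 ± 0.67). Asns had 242 and 168 CPM in recovered cells and 66.1 and 161 CPM in control cells (log2 1.04 ± 0.44). For Trib3 and Asns the groups did not overlap, but in replicate 2 recovered and control cells differed by log2 0.22 and 0.06 only. Ppp1r15a, which restarts translation by dephosphorylating eIF2, had 152 and 52.8 CPM in recovered cells and 47.8 and 45.7 CPM in control cells (log2 1.10 ± 0.39).

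The folate enzymes of mitochondria showed the same split. Mthfd2 had 113 and 19.9 CPM in recovered cells and 23.7 and 20.3 CPM in control cells (log2 1.41 ± 0.58), and Aldh1l2 had 36.0 and 2.45 CPM against 4.46 and 2.24 CPM (log2 2.04 ± 0.79). In each, recovered replicate 1 was the only high library of the 4. Atf4 itself had 431 and 80.5 CPM in recovered cells and 154 and 91.4 CPM in control cells (log2 0.87 ± 0.47), higher in replicate 1 and lower in replicate 2. Ddit3, which encodes the stress factor CHOP, had 57.4 and 17.1 CPM in recovered cells and 23.3 and 14.1 CPM in control cells (log2 0.95 ± 0.42). Endoplasmic reticulum chaperones, which the unfolded protein response raises through other factors, had a median of -0.04 with 0 of 17 at the unadjusted threshold, and heat shock genes a median of -0.04 with 0 of 15.

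**Figure D2:**
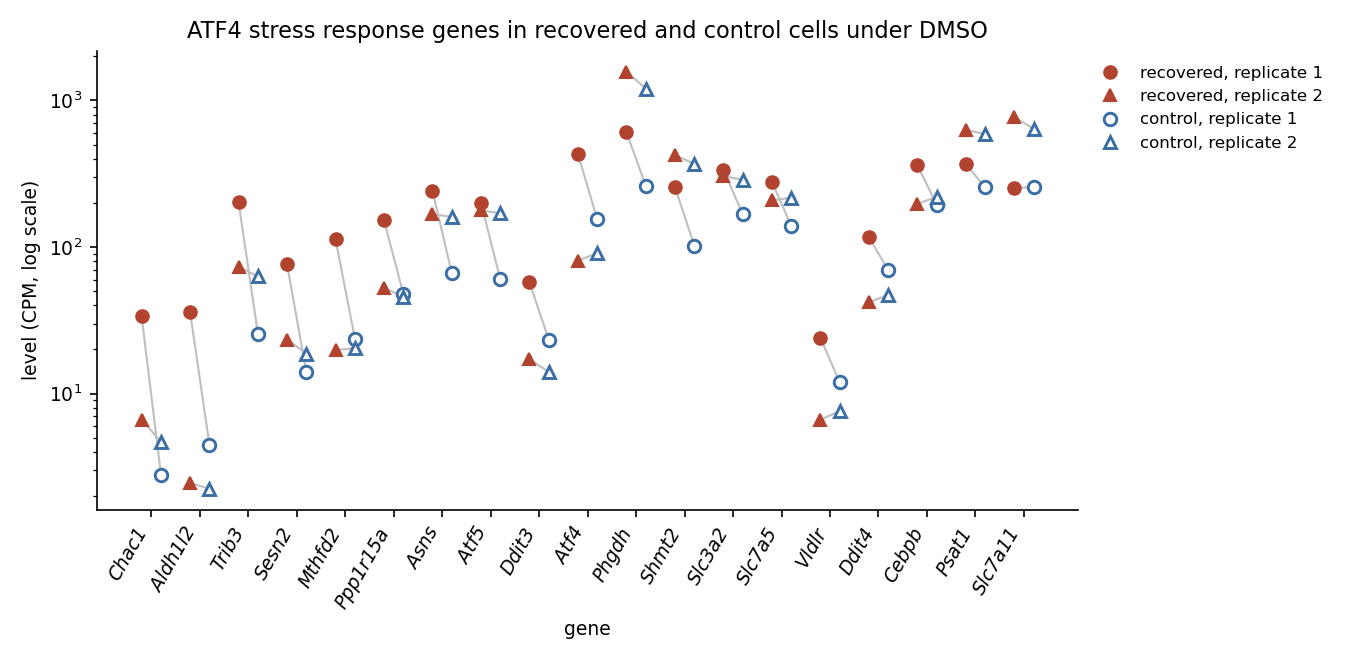
Levels of the 19 ATF4 response genes in CPM on a log axis, 1 point per library, drawn as for the sterol genes with recovered cells filled and left of control cells. Recovered replicate 1 stands above control replicate 1 for all genes but Slc7a11, while the replicate 2 triangles are nearly level, as for Asns at 168 CPM in recovered and 161 CPM in control cells.

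**Figure D3:**
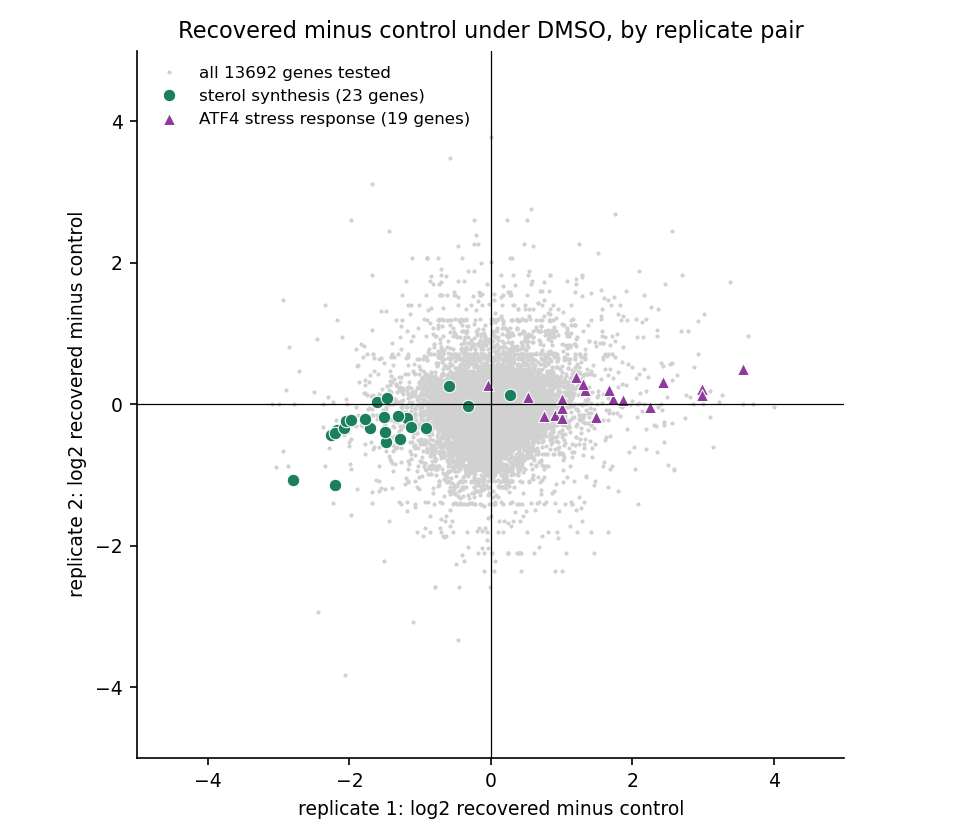
Log2 difference of recovered minus control cells under DMSO in replicate 1 (horizontal) and in replicate 2 (vertical) for all 13692 genes tested (grey), the 23 sterol synthesis genes (circles) and the 19 ATF4 genes (triangles). Sterol genes lie to the left, with medians of -1.51 and -0.32, and ATF4 genes to the right, with medians of 1.33 and 0.10, and both lists spread far more along replicate 1.

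Targets of p53 stood slightly above control cells, mostly in replicate 1. Of 30 tested 0 passed, 3 were higher and 0 lower at an unadjusted p under 0.05, and 14 were higher in both pairs (median 0.30, with 0.42 in replicate 1 and 0.02 in replicate 2). Of all genes 2.08% were higher at that threshold and 25.4% were higher in both pairs. The 3 were Gdf15, a secreted stress signal, Sesn2, which inhibits mTORC1 and stands on the ATF4 list too, and Gadd45a, a damage-induced growth arrest gene. Gdf15 had 205 and 103 CPM in recovered cells and 45.7 and 72.9 CPM in control cells, with no overlap (log2 1.55 ± 0.44). Cdkn1a, the p53 target that halts the cell cycle, had 291 and 268 CPM in recovered cells and 160 and 199 CPM in control cells. Both of its recovered libraries were above both control libraries (log2 0.69 ± 0.38, 95% interval -0.126 to 1.5), and the interval reaches 0. Mdm2, the p53 ubiquitin ligase, had 234 and 20.1 CPM in recovered cells and 187 and 31.0 CPM in control cells (log2 -0.07 ± 0.35), higher in replicate 1 and lower in replicate 2.

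Genes that repair breaks and crosslinks had a median of -0.12, with 0 of 40 at the unadjusted threshold and 17 lower in both pairs, beside 27.7% of all genes. Brca2, which acts in homologous recombination, was the largest of these at log2 -0.58 ± 0.32, with 14.8 and 3.94 CPM in recovered cells and 24.9 and 5.06 CPM in control cells. Mismatch repair genes had a median of -0.12 with 0 of 8 at that threshold. Excision repair genes had a median of 0.02 with 1 of 32 lower there, beside 1.72% of all genes. It was Neil2, a glycosylase that was barely detected at 0.03 and 0.04 CPM in recovered cells and 0.37 and 0.21 CPM in control cells. Genes of G2 and mitosis were lower in 18 of 27 cases in both pairs and higher in both in none (median -0.25), beside 27.7% of all genes lower in both. In replicate 1 all 27 were lower, and in replicate 2 18 were. Cenpf, a kinetochore protein, was the only one at the unadjusted threshold, beside 1.72% of all genes lower there. It had 34.3 and 9.13 CPM in recovered cells and 70.7 and 17.6 CPM in control cells (log2 -0.997 ± 0.34). Mki67, the usual proliferation marker, had 83.6 and 48.2 CPM in recovered cells and 208 and 68.2 CPM in control cells (log2 -0.89 ± 0.44). S phase genes were lower in replicate 1 (median -0.35) and not in replicate 2 (median 0.06).

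Genes by which metals, oxidants and aryl hydrocarbons are usually noticed gave no gene past the threshold. Mt1, a metallothionein that binds metal ions, had 75.4 and 191 CPM in recovered cells and 92.5 and 154 CPM in control cells (log2 -0.02 ± 0.31, 95% interval -0.69 to 0.65). Mt2 had 49.1 and 64.1 CPM in recovered cells and 31.0 and 42.1 CPM in control cells (log2 0.64 ± 0.31, 95% interval -0.03 to 1.31). For Mt2 both recovered libraries were above both control libraries, and for Mt1 the direction differed between the pairs. Hmox1, which breaks down heme, had 66.5 and 26.0 CPM in recovered cells and 18.4 and 26.7 CPM in control cells (log2 1.16 ± 0.48). Its difference lay in replicate 1, and without recovered replicate 1 it was -0.13. Of 28 NRF2 genes 1 was higher (Hmox1) and 1 lower (Sod2) at an unadjusted p under 0.05, beside 2.08% and 1.72% of all genes. The median of the list was 0.05. Sod2, the manganese superoxide dismutase of mitochondria, had 94.7 and 86.3 CPM in recovered cells and 157 and 121.9 CPM in control cells, without overlap (log2 -0.62 ± 0.20).

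The quinone reductase gene Nqo1 had 48.1 and 31.0 CPM in recovered cells against 50.5 and 45.7 CPM in control cells, a log2 difference of -0.29 ± 0.30 (95% interval -0.93 to 0.35). Cyp1a1, the cytochrome P450 that the aryl hydrocarbon receptor induces most, had 29.0 and 22.5 CPM in recovered cells and 37.3 and 27.95 CPM in control cells (log2 -0.34 ± 0.38, 95% interval -1.16 to 0.47). Gclc, the catalytic subunit of glutathione synthesis, was at log2 0.29 ± 0.31 (95% interval -0.37 to 0.96), and Slc26a2, a sulfate transporter, was at -0.22 ± 0.26 (95% interval -0.78 to 0.33). All 4 intervals hold 0, and they also hold sizable differences, so the genes are not shown to stand alike. Leaving out 1 library turned the sign of Mt1, Nqo1, Cyp1a1, Gclc and Slc26a2. Of 13 targets of the aryl hydrocarbon receptor 2 were higher (Cyp1a2 and Tnfaip2) and 1 lower (Selenbp1) at the unadjusted threshold. Of all genes 2.08% were higher and 1.72% lower there. The median of the targets was -0.16, with 0.14 in replicate 1 and -0.35 in replicate 2. Selenbp1 has a close paralog, so its counts are uncertain.

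Of further lists, structural and nuclear noncoding RNAs had the lowest median, -0.43, with -0.56 in replicate 1 and -0.40 in replicate 2. Of 10 genes 6 were lower in both pairs, beside 27.7% of all genes, and 0 were at the unadjusted threshold. This list differed far more between replicate sets. Its median for replicate 2 minus replicate 1 was -2.64 in recovered and -2.73 in control cells. The part of this in the result was not tested. ABC exporters had a median of 0.20 over 9 genes, with 0.40 in replicate 1 and -0.21 in replicate 2. The 78 ribosomal protein genes had a median of 0.14, with 0.14 and 0.13 in the 2 pairs and 51 higher in both, beside 25.4% of all genes, but under B[a]P the replicate 1 median was -0.28. Genes of the respiratory chain had a median of 0.00 with 0 of 32 at the unadjusted threshold, interferon genes a median of -0.04 with 0 of 25, and enzymes of histone methylation a median of 0.01 with 0 of 22. Clock genes had a median of -0.01 over 17 tested. Ciart, a repressor of the clock, had 15.9 and 2.13 CPM in recovered cells and 2.21 and 1.98 CPM in control cells (log2 1.84 ± 0.71), and only recovered replicate 1 was high.

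DESeq2 with the replicate block called 9 genes, of which 6 were higher and 3 lower in recovered cells, and without the block it called 0. Beside Hmgcs1, Idi1 and Chac1 these were Faim2, Gdpd3, Avil, Serpinh1 and Wfdc2, all higher, and the noncoding RNA gene AW112010, which was lower. They stood among the 16 lowest p-values in edgeR too. Faim2, an inhibitor of FAS-driven cell death known mostly from neurons, had 63.4 and 99.5 CPM in recovered cells and 21.3 and 50.8 CPM in control cells. Both recovered libraries lay above both control libraries (log2 1.26 ± 0.24, edgeR adjusted p = 1, DESeq2 adjusted p = 0.0171). It lies on chromosome 15 from 99497005 to 99534880 (Entrez ID 72393). Serpinh1, the collagen chaperone HSP47, had 8.01 and 19.4 CPM in recovered cells and 2.60 and 6.78 CPM in control cells (log2 1.57 ± 0.36, DESeq2 adjusted p = 0.0490). Its pairs differed by log2 1.60 and 1.51, so that here the replicate sets gave nearly the same size.

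The glycerophosphodiester phosphodiesterase family gene Gdpd3 had 2.51 and 3.50 CPM in recovered cells and 0.81 and 1.10 CPM in control cells (log2 1.64 ± 0.33, DESeq2 adjusted p = 0.0282). Wfdc2, a secreted protein with protease inhibitor folds, had 4.82 and 7.001 CPM in recovered cells and 1.81 and 3.18 CPM in control cells (log2 1.28 ± 0.28, DESeq2 adjusted p = 0.0490). Avil, which encodes the actin-severing protein advillin, had 30.6 and 16.2 CPM in recovered cells and 4.37 and 7.87 CPM in control cells (log2 2.04 ± 0.49, DESeq2 adjusted p = 0.0404). For all 3 the groups did not overlap, and both pairs differed by over 2-fold. AW112010 had 8.04 and 2.17 CPM in recovered cells and 26.0 and 5.21 CPM in control cells (log2 -1.53 ± 0.34, DESeq2 adjusted p = 0.0481), lower in both pairs with overlap between the replicate sets.

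Genes apart by 2-fold or more in both pairs were few, 60 higher (0.438%) and 33 lower (0.241%) of all genes tested. At a mean of 1 CPM or more in either group there were 29 higher and 14 lower of 11691 genes. The 29 include Gm20765, Gm21312 and Gm4340, with the same or nearly the same value in every library, so their reads may be shared. The genes that follow were chosen after their values were seen. Many of the higher ones were low throughout. Sprr2b, a protein of the cornified envelope, had 5.91 and 5.75 CPM in recovered cells against 1.63 and 2.14 CPM in control cells (log2 1.68 ± 0.45). Fgg, the gamma chain of fibrinogen that hepatocytes secrete, had 3.81 and 0.84 CPM in recovered cells and 0.42 and 0.31 CPM in control cells (log2 2.59 ± 0.79). Cth, which makes cysteine from cystathionine, had the largest positive difference, with 17.5 and 1.53 CPM in recovered cells and 1.63 and 0.42 CPM in control cells (log2 2.90 ± 0.80). Recovered replicate 1 was far above the other 3 libraries in both Fgg and Cth.

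Of the genes lower in both pairs by 2-fold, Hlf, a clock-controlled factor of the PAR bZIP family, had 9.14 and 11.1 CPM in recovered cells and 34.2 and 25.6 CPM in control cells, without overlap (log2 -1.50 ± 0.39). Trp63, the p53 relative of epithelia, had 5.12 and 3.22 CPM in recovered cells and 14.5 and 7.46 CPM in control cells (log2 -1.35 ± 0.43). Slc1a3, a glutamate transporter, had 0.77 and 0.72 CPM in recovered cells and 2.41 and 1.77 CPM in control cells (log2 -1.48 ± 0.34). In these 3 every recovered library was below every control library. Bmp5, a secreted growth factor, had 11.5 and 2.53 CPM in recovered cells and 34.0 and 5.84 CPM in control cells (log2 -1.39 ± 0.37), lower in both pairs with overlap. Fgf9 had the largest negative difference, with 0.24 and 0 CPM in recovered cells and 1.18 and 0.83 CPM in control cells, and its level is too low for a firm value.

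The B[a]P libraries hold the same contrast in other dishes, although the labels do not say whether DMSO and B[a]P dishes of equal replicate number came from the same culture. Between recovered and control cells under B[a]P edgeR called 0 of 13692 genes (0%), with 371 at an unadjusted p under 0.05 (2.71%), again a share below the threshold itself. DESeq2 called 8, Faim2 and 7 predicted genes with like names, of which 6 had the same value in every library, so that their reads cannot be told apart. Faim2 was thus called by DESeq2 under both treatments (log2 1.13 ± 0.27, adjusted p = 0.0438 under B[a]P). Of the 285 genes higher under DMSO at the unadjusted threshold, 188 (66.0%) were also higher in both B[a]P pairs, beside 14.6% of all genes. Of the 235 lower ones, 165 (70.2%) were lower in both B[a]P pairs, beside 19.4% of all genes. The choice of these genes was not free of the B[a]P libraries, which share the block and the estimate of spread in the fit. A gene whose B[a]P pairs disagree is less likely to be chosen, so part of the agreement may come from the choice. The difference of the contrast between treatments was tested as an interaction, and edgeR called 0 genes, with 57 (0.416%) at the unadjusted threshold. DESeq2 called 0 as well.

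Sterol genes were lower under B[a]P as well, with a median of -1.09 in replicate 1 and -0.32 in replicate 2. Of the 23 genes 16 were lower in both pairs, beside 19.4% of all genes. At the unadjusted threshold 8 were lower, beside 1.2% of all genes. Of 15 fatty acid synthesis genes 11 were lower in both B[a]P pairs and 5 were lower at that threshold. Their median was -0.53 in replicate 1 and -0.16 in replicate 2. Idi1 had 23.02 and 5.64 CPM in recovered cells and 83.9 and 10.6 CPM in control cells with B[a]P, and Hmgcs1 had 53.1 and 12.7 CPM against 101 and 20.6 CPM. The ATF4 list was higher in replicate 1 (median 0.66) and not in replicate 2 (median -0.06). Of its 19 genes 2 were higher in both B[a]P pairs, beside 14.6% of all genes. By this count the list did not stand above all genes. Chac1 had 26.4 and 15.7 CPM in recovered cells and 11.4 and 15.2 CPM in control cells with B[a]P, so that control cells stood above their DMSO level. The difference of its contrast between treatments was log2 -1.77 ± 0.80 (edgeR adjusted p = 1). Faim2 had 79.2 and 105 CPM in recovered cells and 34.8 and 51.1 CPM in control cells with B[a]P, Wfdc2 had 4.47 and 7.94 CPM against 2.10 and 3.23 CPM, and Serpinh1 had 7.01 and 15.2 CPM against 3.74 and 6.13 CPM. These 3 were higher in all 4 pairs of both treatments. Of the 29 genes higher by 2-fold in both DMSO pairs, 26 were higher in both B[a]P pairs, 6 of them by 2-fold. Of the 14 lower ones 12 were lower, 1 of them by 2-fold. Of all genes 14.6% were higher and 19.4% lower in both B[a]P pairs. The 26 count Gm20765, Gm21312 and Gm4340 as separate genes, although their reads may be shared.

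**Figure D4:**
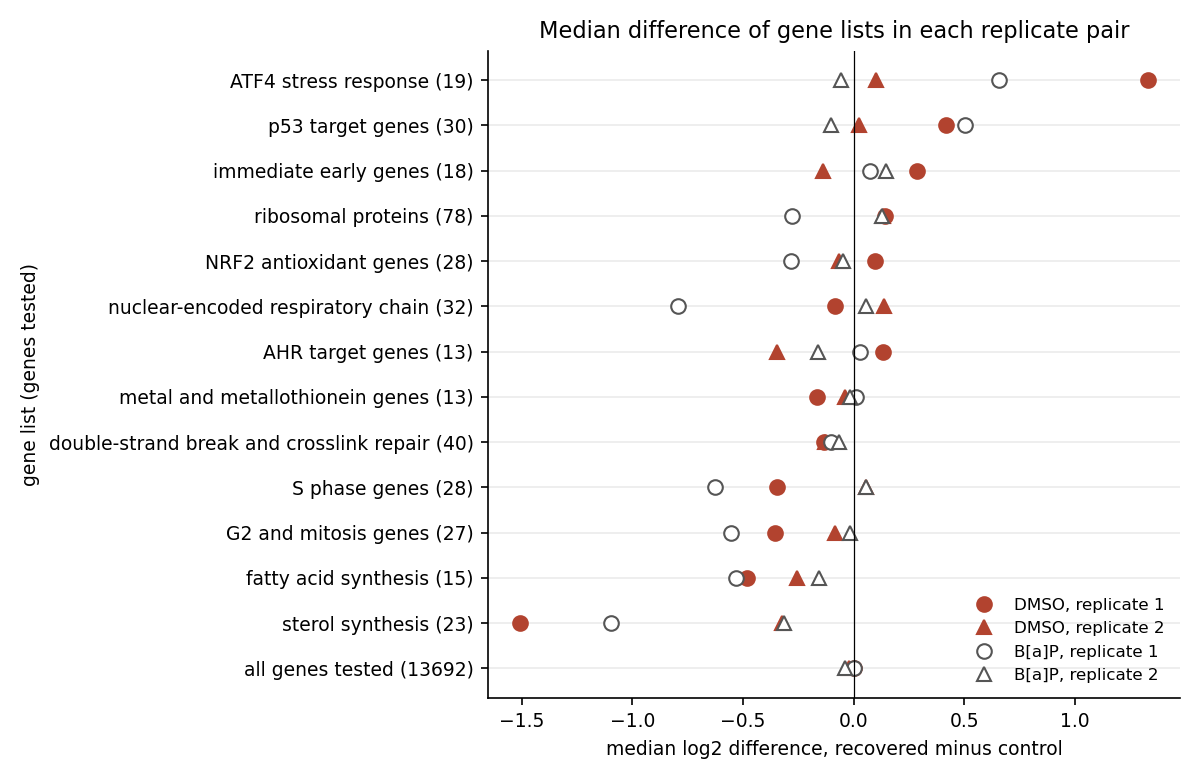
Median log2 difference of recovered minus control cells for 13 gene lists and for all genes tested, in each replicate pair under DMSO (filled) and under B[a]P (open), with circles for replicate 1 and triangles for replicate 2. Sterol synthesis is at -1.51 and -0.32 under DMSO and -1.09 and -0.32 under B[a]P, and the ATF4 list is at 1.33 and 0.10 under DMSO and 0.66 and -0.06 under B[a]P.

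Cells that stayed in Cr(VI) were set beside the recovered cells under DMSO. For recovered minus continuing Cr(VI) cells edgeR called 0 genes (0%), with 1612 at an unadjusted p under 0.05 (11.8%). DESeq2 called 3, all lower in recovered cells, Akap5, Lrrc17 and Elobl. Akap5, an anchor of protein kinase A, had 11.8 and 52.99 CPM in recovered cells and 54.97 and 132 CPM in continuing Cr(VI) cells, and 12.1 and 60.7 CPM in control cells. Continuing Cr(VI) minus control cells, which uses the same control libraries as the recovered contrast, had 0 genes past the threshold (0%) and 2343 at the unadjusted one (17.1%). The sterol list had a median of -0.65 in recovered minus continuing Cr(VI) cells and -0.46 in continuing Cr(VI) minus control cells, where 3 members were lower at the unadjusted threshold, beside 5.19% of all genes. Hmgcs1 had 98.5 and 14.9 CPM in continuing Cr(VI) cells, between the recovered and the control library in both replicates, and Idi1 with 73.0 and 10.3 CPM stood likewise. The ATF4 list had a median of 0.52 in recovered minus continuing Cr(VI) cells and 0.25 in continuing Cr(VI) minus control cells, and Chac1 had 4.54 and 6.18 CPM in continuing Cr(VI) cells.

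Serpinh1, Gdpd3 and Faim2 are examples of genes whose recovered libraries overlapped with those of cells still in Cr(VI). Serpinh1 had 10.1 and 21.3 CPM, Gdpd3 had 2.44 and 3.20 CPM and Faim2 had 47.8 and 82.6 CPM in continuing Cr(VI) cells. Their log2 differences of recovered minus continuing Cr(VI) cells were -0.24 ± 0.34 for Serpinh1, 0.08 ± 0.31 for Gdpd3 and 0.34 ± 0.24 for Faim2. Mt1 and the replication histones stood lower in recovered cells, with none past the threshold. Mt1 had 154 and 299 CPM in continuing Cr(VI) cells (recovered minus continuing Cr(VI) log2 -0.85 ± 0.31). The 62 replication histone genes had a median of -0.82 in recovered minus continuing Cr(VI) cells. Of these 35 were lower at the unadjusted threshold, beside 1167 of all 13692 genes. In recovered minus control cells their median was -0.03, with 0 at that threshold, and the pairs were split. The median was -0.29 in replicate 1, with 42 lower, and 0.21 in replicate 2, with 55 higher. Histone genes are near copies of each other, and the table may not separate their reads.

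Passage 20 gave genes that had differed while Cr(VI) was present, in libraries that the recovered contrast does not use. With at least 2-fold between the nearest libraries of both groups and a mean of 1 CPM, 82 genes were higher and 73 lower in Cr(VI)-grown than in control cells at passage 20 under DMSO, a choice made after seeing the data. The passage 20 Cr(VI) libraries were 2-fold apart from each other in 32.2% of genes, against 2.45% in the control libraries of that passage. In recovered cells 25 of the 82 (30.5%) were higher than control cells in both pairs, beside 26.5% of all genes, and 23 of the 73 (31.5%) were lower in both, beside 25.7%. These shares are near those of all genes. In continuing Cr(VI) cells 38 of the 82 (46.3%, beside 33.3% of all genes) and 38 of the 73 (52.1%, beside 38.3%) kept the direction in both pairs against the same control libraries. By 2-fold or more in both pairs, 2 of the 82 were higher in recovered cells, Rnf223 and Tmem116, and 5 in continuing Cr(VI) cells, Rmrp, Rpph1, Rnf223, Lgi4 and Azin2, while of the 73 none was lower in either. Of all 14343 genes on that scale, 66 were higher by 2-fold in both pairs in recovered cells and 198 in continuing Cr(VI) cells. Lower by 2-fold in both pairs were 37 in recovered cells and 37 in continuing Cr(VI) cells. With so small a share over all genes, finding none among the 73 tells little. The floor of 1 CPM held at passage 20 only. At passage 25 Rnf223 had 0.36 and 0.13 CPM in recovered cells, 0.16 and 0.12 CPM in continuing Cr(VI) cells and 0.03 and 0 CPM in control cells. Tmem116 had 0.71 and 0.54 CPM in recovered and 0.31 and 0.23 CPM in control cells. Both are too low for a firm value.

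Single genes went different ways. On a scale over all 20 libraries, Cdkn1a had 320 and 298 CPM in recovered cells, 289 and 491 CPM in continuing Cr(VI) cells and 176 and 219 CPM in control cells of passage 25, after 560 and 694 CPM in Cr(VI)-grown and 188 and 188 CPM in control cells of passage 20. Its recovered libraries lay above the controls and below the passage 20 Cr(VI) libraries. Rmrp and Rpph1, the RNA parts of RNase MRP and RNase P, were higher in continuing Cr(VI) cells by log2 1.65 and 1.74 and by log2 2.21 and 1.97 in the 2 pairs. In recovered cells the differences from control cells were -0.60 and -0.09 for Rmrp and -0.55 and 0.69 for Rpph1, so neither was higher in both pairs.

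**Figure D5:**
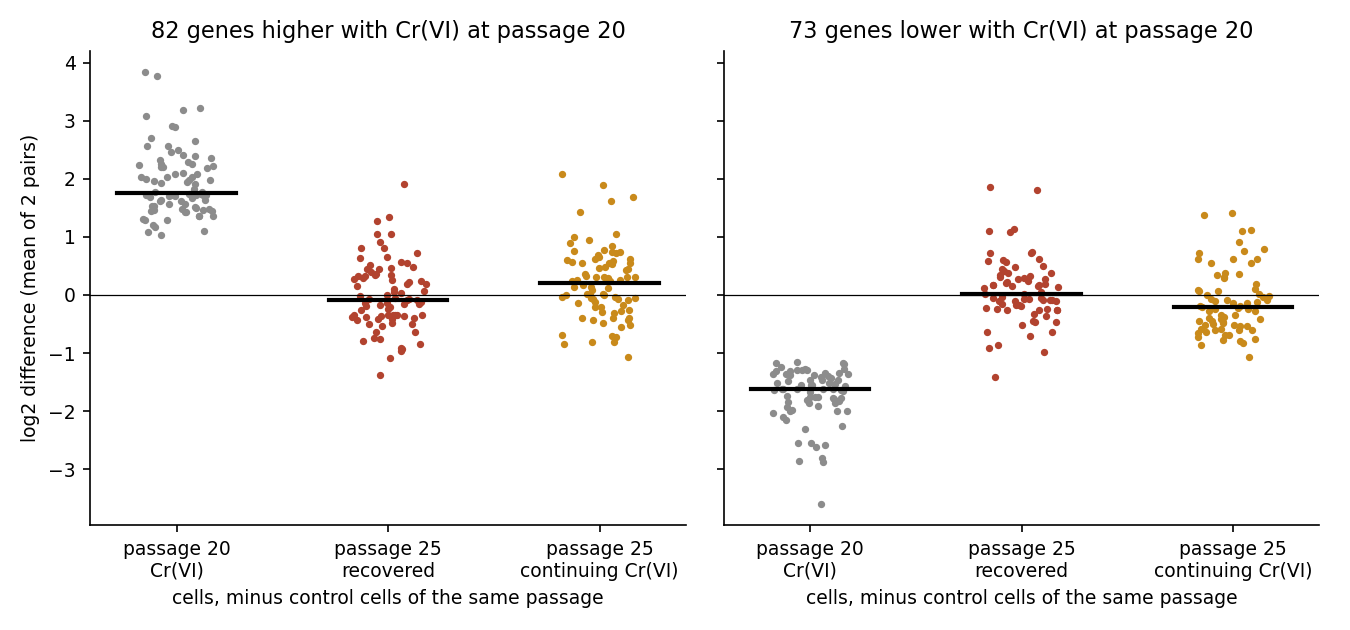
Log2 difference from control cells of the same passage, as the mean of 2 replicate pairs, for the 82 genes higher (left) and the 73 genes lower (right) with Cr(VI) at passage 20, with 1 point per gene and black bars at the medians. The medians are 1.76 and -1.62 at passage 20, where the genes were chosen, -0.08 and 0.02 in recovered cells and 0.21 and -0.20 in continuing Cr(VI) cells.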

How the data were processed

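RNA-seq libraries of Hepa-1 cells were compared from 1 table of raw counts per Entrez gene ID that the authors deposited. Per the submitters' processing notes, TopHat, CASAVA 1.8, bcl2fastq, DESeq and the build mm10 are named, with no roles stated. The counting program, its annotation and its strand handling: not given in the sources used here. Symbols and coordinates came from RefSeq GRCm38.p6 for 23275 of 23373 IDs. The 12 libraries of passage 25 (6 groups of 2) were fitted in edgeR 4.0.16 (R 4.3.3) with filterByExpr, TMM, a mean per group and the replicate number as a block (5 residual degrees of freedom). Quasi-likelihood tests were two-sided, with Benjamini-Hochberg adjustment over 13692 genes at 0.05. The block follows the pairing of the titles: replicate differences of all 15 pairs of groups correlated at 0.83 to 0.93 across genes. DESeq2 1.42.0 was an alternative, beside other scalings, filters, sets of libraries and left-out libraries. Pair differences are log2 CPM with a prior count of 2. The code of the fit was run on counts simulated from the fit itself, which cannot show whether the block or the spread suits these libraries. Genes were to be named among those past 0.05, by list and by size; none passed, so 11 fixed genes, list members and genes chosen after their values were seen are given. Members and lists were chosen with earlier results of these data known. A few genes of the lists are counted but not reported here by name. Titles carry 27 where the passage label says 25. Precision is limited by 2 libraries a group rather than by the 21795837 to 34290046 counts per library.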

Additional observations from a re-analysis of the deposited data

How the results depend on the processing

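The count of genes past the threshold between recovered and control cells under DMSO was 0 in edgeR with the replicate block and also without it, and with all 20 libraries, the 6 DMSO libraries or the 4 compared libraries, with RLE or upper-quartile scaling and without the count filter. DESeq2 with the block gave 9, and 8 under B[a]P and 3 against continuing Cr(VI) cells, where edgeR gave 0 each. Leaving out 1 of the 4 libraries gave 0 to 5 calls, the 5 without recovered replicate 2 (Chac1, Slc6a9, Cdsn, Sesn2 and Gdf15). The pairing by replicate number set the list counts at an unadjusted p under 0.05. Sterol synthesis went to 0 members without the block, 4 with all 20 libraries and no block and 1 in DESeq2 without it, and the ATF4 list to 2, 5 and 5. With 1 library left out, in settings added after seeing the data, the counts ranged over 3 to 20 for sterol synthesis and 0 to 15 for the ATF4 list. Their medians kept their signs in every setting run, at -1.40 to -0.41 and 0.18 to 1.62 with 1 library left out.

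Differences near 0 changed sign, and so did that of Hmox1, at log2 1.16 in the main fit, when recovered replicate 1 was left out. Mt1 was at 0.11 without the block, 0.13 with all 20 libraries and no block, 0.0109 in the 6 DMSO libraries and 0.11 in DESeq2 without the block, and with 1 library left out it ranged over -0.33 to 0.35. Afp was at 0.0154 with all 20 libraries and no block and at 0.00195 in DESeq2 without it, and with 1 library left out at -0.36 to 0.19. Over the same left-out libraries Hmox1 ranged over -0.13 to 1.95 and Gclc over -0.26 to 0.73, the lowest without recovered replicate 1. Slc26a2 ranged over -0.46 to 0.0085, Nqo1 over -0.66 to 0.032 and Cyp1a1 over -0.69 to 0.044. The cause was not tested. The median of all genes moved by less than 0.1 on the log2 scale in every setting. Leaving out a library leaves its group with 1, which is assumed to vary like the others. Counting depth was ample for most named genes, but genes under 1 CPM rest on few counts.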
